A study of Mus musculus with 4 samples.

Results

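Photoreceptor transcription factors were followed as 10 genes, Otx2, Crx, Nrl, Nr2e3, Rorb, Esrrb, Thrb, Neurod1, Mef2c and Mef2d, chosen by name among the 22863 genes of the deposited table for their known part in rod and cone gene expression. The choice was made with earlier results of these data known. All 10 were listed and all 10 passed the filter on low values. The comparison asks how the transcript levels of these regulators differ between mice that saw morning light and mice kept in prolonged darkness, at the same clock hour. RNA-seq had been performed on 4 samples of C3H/f+/+ eyes, a melatonin-proficient line that carries normal Pde6b and therefore keeps its rods. In subjective day (SD, 2 samples) the mice were taken at CT 6, that is 6 hours after lights would have come on, after 18 hours of darkness according to the Methods (a paragraph of the study's Results gives 30 hours). In objective day (OD, 2 samples) they were taken at ZT 6, the same hour of a real lighting cycle, after morning light and 1 hour of darkness. Both groups had been raised under 12 hours of light a day. Each sample pooled 4 eyes from 2 mice, a female and a male, and held retina, RPE, choroid and posterior sclera, and the age of these animals is not given in the sources used here.

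Rods and cones are made and maintained by a small network of DNA-binding proteins. The homeodomain proteins Otx2 and Crx open the photoreceptor program, Nrl with its target Nr2e3 turns a precursor into a rod, and Rorb acts upstream of Nrl. Thrb sets the choice of cone opsin, Esrrb and Neurod1 keep mature photoreceptors alive, and the MEF2 proteins act together with Crx at photoreceptor enhancers.

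Rorb, the retinoid-related orphan receptor beta, was lower in both objective day samples and was the 1 member of 10 that passed the test, with a mean 43.2% below subjective day. The other 9 members did not pass. Their estimated changes ran from -0.22 on the log2 scale for Esrrb to 0.24 for Nr2e3. Across all 17784 genes tested, 8.51% passed the same test in either direction, 7.45% as lower and 1.06% as higher in objective day, so a count of 1 in 10 is near the background and is a result about Rorb rather than about the list. The median log2 fold change was -0.10 over the 10 members and 0.015 over all genes tested. All fold changes are objective day over subjective day on the scale log2(value + 1), and p-values were adjusted by Benjamini-Hochberg over all genes tested with limma. Values are adjusted counts, meaning gene counts that the authors had brought to a common library size. A change in the RNA of bulk tissue can come from fewer cells of a type or from less RNA per cell, and these cannot be told apart here.

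**Figure D1:**
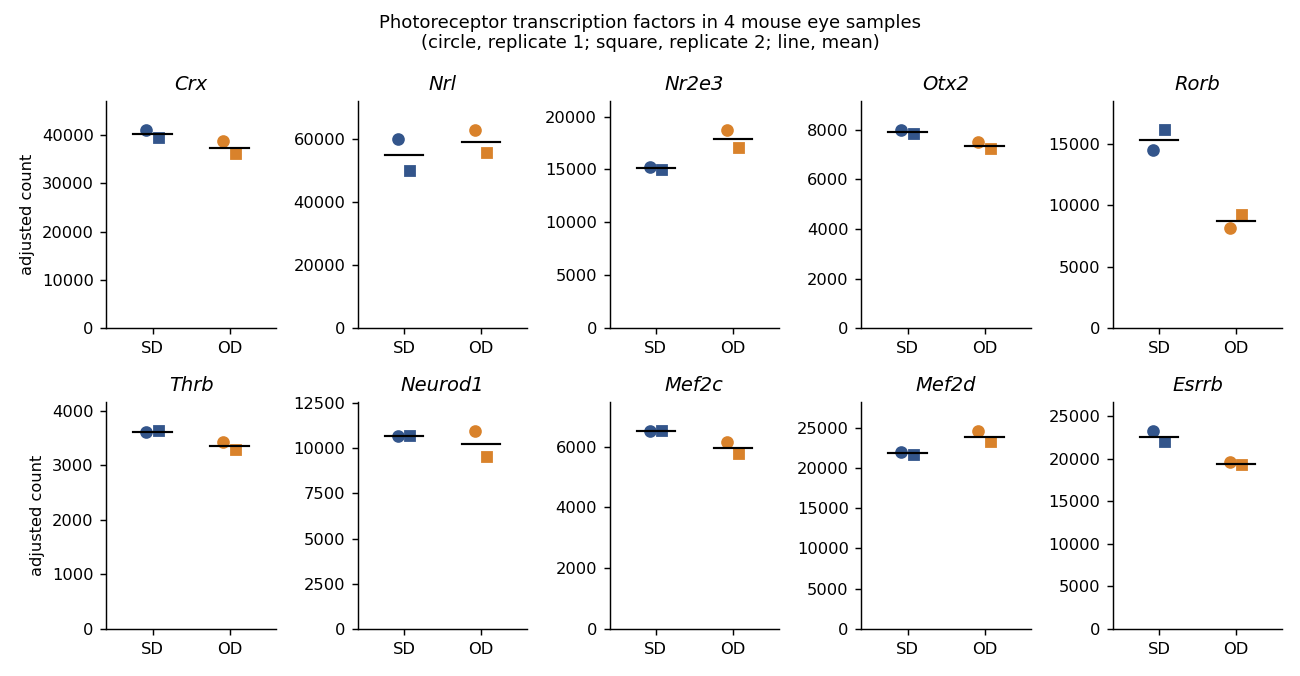
Adjusted count (vertical axes, each starting at 0) of the 10 transcription factors in subjective day (SD, blue) and objective day (OD, orange), with circles for replicate 1, squares for replicate 2 and lines for the mean of 2 samples. Rorb shows the widest gap, from 14526 and 16099 in subjective day to 8186.5 and 9214.2 in objective day.

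Totals of the adjusted counts lay between 33278417 and 35236783, which the authors' adjustment to a common library size makes alike. Relative depth, estimated from the spacing of the low values, lay between 89.1% and 107% of the mean. At the lowest value of each member counting error alone was between 0.447% and 1.75%. The 2 subjective day values of Mef2c, Thrb and Neurod1 differed by less than this counting error, so their SD understates the error. The tissue carried the markers of its label, with rod genes summing to between 1961820 and 2375830 and RPE markers to between 83222 and 100041 per sample. Markers of the ocular surface were lower in objective day, in 4 of the 4 tested of 5 listed (the fifth, Krt12, lay between 1.78 and 12.5), with summed values of 10375 and 10854 in subjective day, against 2965 and 5430 in objective day. Of the other retinal markers, Aqp4 and Slc1a3 of 6 Müller genes, Cabp5 of 7 bipolar genes and Rpe65 of 7 tested RPE genes passed, as lower, where 8.51% of all genes passed. Each list leaned both ways, with 3 Müller genes negative and 3 positive, 4 bipolar genes negative and 3 positive, and 3 RPE genes negative and 4 positive. With the trend with transcript GC content removed, a fit that called 1.27% of genes, none of these retinal and RPE markers passed, while the 4 ocular surface markers still did. The log2 fold change went from -0.44 to -0.11 for Aqp4, from -0.34 to -0.24 for Slc1a3, from -0.31 to -0.20 for Cabp5 and from -0.52 to -0.25 for Rpe65. Lens markers summed to 51473 and 6023 in subjective day, against 57334 and 14405 in objective day, and none of 6 passed. Mitochondrial transcripts made up 6.06% and 6.38% of the total in subjective day, against 3.40% and 2.63% in objective day. The part of these differences in the results on the transcription factors was not tested.

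Rorb (ENSMUSG00000036192) spans 18930605 to 19111196 on the minus strand of chromosome 19 (GRCm38, as for all coordinates here) and has no overlapping annotated gene. It is an orphan nuclear receptor that rods need in order to form and that is also made in amacrine and horizontal cells. RefSeq gives the gene an upstream and a downstream start site, which the gene-level value does not separate. The 250 bases before each start are shown because Rorb is the member that fell. The window before Crx, the member with the highest level per length, is shown for comparison. Sequences are from RefSeq on GRCm38.p6, read 5′ to 3′ on the minus strand, and capitals mark any of 5 short motifs searched on both strands. The motifs were the Crx and Otx2 homeodomain core TAATCC, the Nrl (Maf) core TGCTGA, the nuclear receptor core AGGTCA, the NeuroD E-box CAGATG and the MEF2 core TATTTA, and none overlapped another in these windows.
Rorb, upstream start, chr19:19111197-19111446: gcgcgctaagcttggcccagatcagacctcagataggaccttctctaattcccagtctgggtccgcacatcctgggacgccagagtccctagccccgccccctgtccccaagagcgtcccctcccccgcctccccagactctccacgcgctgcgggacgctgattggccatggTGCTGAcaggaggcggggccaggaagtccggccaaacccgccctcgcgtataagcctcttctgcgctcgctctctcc
Rorb, downstream start, chr19:19001118-19001367: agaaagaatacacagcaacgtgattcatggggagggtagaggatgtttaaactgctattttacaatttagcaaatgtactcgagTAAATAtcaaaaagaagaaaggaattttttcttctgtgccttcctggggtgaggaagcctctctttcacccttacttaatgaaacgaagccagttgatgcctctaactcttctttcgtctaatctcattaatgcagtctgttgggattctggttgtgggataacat
Crx, chr7:15879956-15880205: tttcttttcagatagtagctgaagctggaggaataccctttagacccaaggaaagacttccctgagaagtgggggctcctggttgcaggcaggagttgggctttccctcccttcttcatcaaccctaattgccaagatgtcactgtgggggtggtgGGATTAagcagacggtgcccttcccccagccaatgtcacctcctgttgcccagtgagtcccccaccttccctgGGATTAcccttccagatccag

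The upstream Rorb window lies outside the annotated gene and holds a single Nrl core, 77 bases before the start. The downstream window lies in an intron of Rorb and holds a single MEF2 core on the opposite strand, 166 bases before the start. The Crx window, of which 13 bases fall in an annotated exon, holds the homeodomain core 2 times on the opposite strand, 94 and 21 bases before the start. Of the 32851 windows of this length in RefSeq, 6.25% hold the homeodomain core, 16.1% the Nrl core, 14.0% the nuclear receptor core, 14.4% the NeuroD E-box and 12.7% the MEF2 core. Over the 18 windows of the 10 members, the homeodomain core was found in 3, the Nrl core in 5, the nuclear receptor core in 3, the NeuroD E-box in 3 and the MEF2 core in 1. A match is a string of letters in the window and not a measured binding site.

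The value of Rorb was 14526 and 16099 in the 2 subjective day samples and 8186.5 and 9214.2 in the 2 objective day samples. Both objective day samples lay far below both subjective day samples, and the gap between the groups was wider than the spread within either. Subjective day averaged 15312 ± 1112 (SD, n = 2), and objective day averaged 8700 ± 727 (SD, n = 2). On the log2 scale the fold change was -0.82 (standard error 0.085, 95% interval -1.01 to -0.62, adjusted p = 0.00559 from limma's test). A lower log2 fold change than that was found for 538 of the 17784 genes. Relative to Crx in the same sample, the ratio of Rorb to Crx values was 0.354 and 0.409 in subjective day, against 0.211 and 0.256 in objective day. The amacrine and ganglion cell markers, a list of 9 genes, held none that passed, and their summed value was between 39703 and 44030 in subjective day, against a range between 43177 and 44355 in objective day. With the trend of each sample with transcript GC content removed, the log2 fold change of Rorb was -0.51 (adjusted p = 0.0326 from limma's test), a smaller fall that still passed, at a background of 1.27% of genes called. With a variance prior that did not follow the mean expression, its adjusted p was 0.126 and no gene passed, while 3586 genes had an unadjusted p under 0.05.

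**Figure D2:**
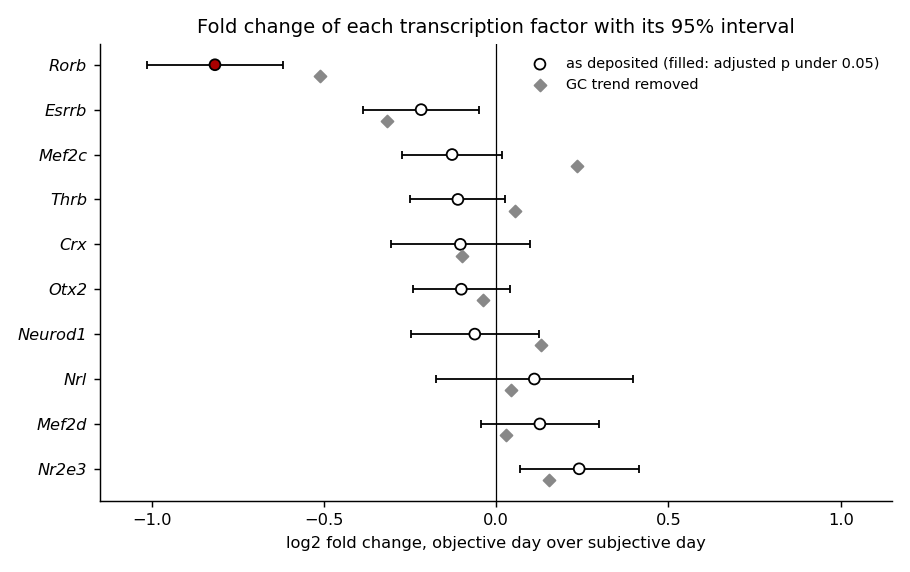
Log2 fold change of objective day over subjective day (horizontal axis) for each of the 10 transcription factors, with limma's 95% interval (bars, 2 samples against 2). Filled circles passed the adjusted p threshold of 0.05 and open circles did not, and grey diamonds give the value with the GC trend removed. Rorb lies at -0.82, while the other 9 lie between -0.22 and 0.24.

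Esrrb (ENSMUSG00000021255), an estrogen-related orphan receptor that supports rod survival, spans 86361117 to 86521628 on chromosome 12 (plus strand). Its value was 23225 and 21957 in subjective day, against 19593 and 19246 in objective day. Both objective day samples were below both subjective day samples. Its log2 fold change was -0.22 (standard error 0.072, 95% interval -0.39 to -0.050), and with an adjusted p of 0.112 from limma's test it did not pass. Its longest transcript has a GC content of 54.9%, and with the GC trend removed its log2 fold change was -0.32 (adjusted p = 0.103). Thrb (ENSMUSG00000021779), a thyroid hormone receptor whose cone isoform is needed for medium-wavelength opsin, spans 17660261 to 18038090 on chromosome 14 (plus strand). Its value was 3613.7 and 3625.4 in subjective day, against 3429.8 and 3274.6 in objective day. The groups did not overlap, but the log2 fold change of -0.11 (95% interval -0.25 to 0.027, adjusted p = 0.287) did not pass, and with the GC trend removed it turned to 0.053. The gene is known to make several receptor isoforms that a gene-level value does not separate.

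Nr2e3 (ENSMUSG00000032292), the nuclear receptor that represses cone genes in rods, spans 59942771 to 59960659 on chromosome 9 (minus strand). Its value was 15236 and 14986 in subjective day, against 18689 and 17061 in objective day. Both objective day samples were above both subjective day samples. Its log2 fold change of 0.24 (standard error 0.073, 95% interval 0.069 to 0.41) had an adjusted p of 0.0925 from limma's test and did not pass. With upper-quartile scaling it passed (adjusted p = 0.0438), while with the GC trend removed its log2 fold change was 0.15 (adjusted p = 0.471). Nrl (ENSMUSG00000040632), the leucine zipper protein that drives rod fate and activates Nr2e3, spans 55518978 to 55524981 on chromosome 14 (minus strand). Its value was 60040 and 50003 in subjective day, against 62854 and 55692 in objective day. Here the groups overlapped and the spread within each was wider than the shift between their means. Its log2 fold change was 0.11, and its 95% interval from -0.18 to 0.40 (adjusted p = 0.618) was the widest of the 10 members. Without subjective day replicate 2 it was -0.021, and with the GC trend removed it was 0.043.

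Otx2 (ENSMUSG00000021848), a homeodomain protein that commits retinal precursors to the photoreceptor fate and is also made in bipolar cells and RPE, spans 48657677 to 48673819 on chromosome 14 (minus strand). Its value was 7978.3 and 7824.8 in subjective day, against 7514.6 and 7220.4 in objective day. Crx (ENSMUSG00000041578), the cone-rod homeodomain protein that Otx2 activates, spans 15865947 to 15879968 on chromosome 7 (minus strand). Its value was 41008 and 39350 in subjective day, against 38771 and 36037 in objective day. For both genes the 2 objective day samples lay below the 2 subjective day samples by a small margin. The log2 fold change was -0.10 for Otx2 (95% interval -0.24 to 0.040, adjusted p = 0.341). It was also -0.10 for Crx (95% interval -0.30 to 0.097, adjusted p = 0.496). Neither passed limma's test, and with the GC trend removed the values were -0.037 for Otx2 and -0.10 for Crx. Otx2 shares 168 exonic bases, or 3.98% of its exons, with Gm49154 on the same strand and 154, or 3.65%, with Otx2os1 on the opposite strand. No row of the table was matched to either of these genes, and the strand setting of the counting is not given in the sources used here.

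Neurod1 (ENSMUSG00000034701), a basic helix-loop-helix protein that mature photoreceptors need to survive, spans 79452521 to 79456751 on chromosome 2 (minus strand). Its value was 10653 and 10674 in subjective day, against 10943 and 9534.1 in objective day. The objective day samples lay on either side of those of subjective day. Its log2 fold change was -0.062 (95% interval -0.25 to 0.12, adjusted p = 0.674), and it turned to 0.13 with the GC trend removed. Neurod1 shares 7.37% of its exonic bases with Cerkl on the same strand and 5.64% with the antisense Gm26755. The part of these shared bases in its count was not tested.

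Mef2c (ENSMUSG00000005583) and Mef2d (ENSMUSG00000001419) encode MADS-box proteins, of which Mef2d is needed for photoreceptor gene expression and Mef2c is also made in muscle, vessels and microglia. Mef2c spans 83504034 to 83667080 on chromosome 13 (plus strand) and Mef2d spans 88142372 to 88172086 on chromosome 3 (plus strand). The value of Mef2c was 6506.5 and 6505.1 in subjective day, against 6156.2 and 5757.6 in objective day. The value of Mef2d was 22048 and 21673 in subjective day, against 24573 and 23184 in objective day. Neither gene overlapped between the groups, and they leaned in opposite directions. The log2 fold change was -0.13 for Mef2c (95% interval -0.27 to 0.018, adjusted p = 0.249) and 0.13 for Mef2d (95% interval -0.044 to 0.30, adjusted p = 0.325), and neither passed. With the GC trend removed the value of Mef2c turned to 0.23 (adjusted p = 0.18) and that of Mef2d was 0.027. The muscle markers summed to between 56584 and 64469 in subjective day, against a range between 54305 and 60172 in objective day, and none of the 8 passed. The microglial markers summed to between 2444 and 2913 in subjective day, against a range between 2887 and 2965 in objective day, where P2ry12 alone of 6 passed, as lower, while the other 5 had positive log2 fold changes and the list's median was 0.25 (P2ry12 and the endothelial genes that follow were singled out after their values were seen). The endothelial markers summed to between 14064 and 14075 in subjective day, against a range between 13260 and 13448 in objective day. Most of this sum was Kdr, with 11869 and 11935 in subjective day, against 10927 and 10653 in objective day. Of the 6 endothelial genes, 4 had positive and 2 had negative log2 fold changes, and the median was 0.16. Cldn5 and Egfl7 passed, as higher. Over all genes tested, 7.45% passed as lower and 1.06% as higher. With the GC trend removed none of P2ry12, Cldn5 and Egfl7 passed limma's test. The log2 fold change went from -0.90 to -0.38 for P2ry12 (adjusted p = 0.417). It went from 0.52 to 0.39 for Cldn5 (adjusted p = 0.136) and from 0.55 to 0.44 for Egfl7 (adjusted p = 0.0787). The part of these cells in the Mef2c value was not tested. Of Mef2d's exonic bases, 8.87% are shared with the antisense gene 1700113A16Rik.

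Counted over the 10 members, both objective day samples lay below both subjective day samples for 6, above them for 2, and the groups overlapped for 2. Groups did not overlap for 56.1% of all genes tested, 28.2% with objective day below and 27.9% above. The separation of most members is therefore read as a description, not as a result about them. For a single gene in this design the smallest two-sided p of an exact permutation test is 0.333, so calls depend on the variance information limma pools over genes.

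The members also differed widely in level. Per kilobase of merged exons the highest was Crx, with 12276 ± 654 adjusted counts per kilobase (SD over 4 samples), followed by Nrl with 10045 ± 984. Nr2e3 came next with 4896 ± 514. Neurod1 (3830 ± 229), Mef2d (3821 ± 218) and Esrrb (3474 ± 316) followed, and the ranges of these neighbours over the 4 samples overlapped. Otx2 (1809 ± 79.8), Rorb (1084 ± 352), Thrb (471 ± 22.5) and Mef2c (397 ± 22.7) were lower, each with a range separate from its neighbours. Rorb had the largest spread relative to its mean, and its 4 levels per kilobase were 1311 and 1454 in subjective day, against 739 and 832 in objective day. With the length of the longest transcript in place of merged exons, Crx, Nrl and Nr2e3 stayed the highest in that order, Esrrb moved ahead of Mef2d and Neurod1, and Mef2c moved ahead of Thrb.

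**Figure D3:**
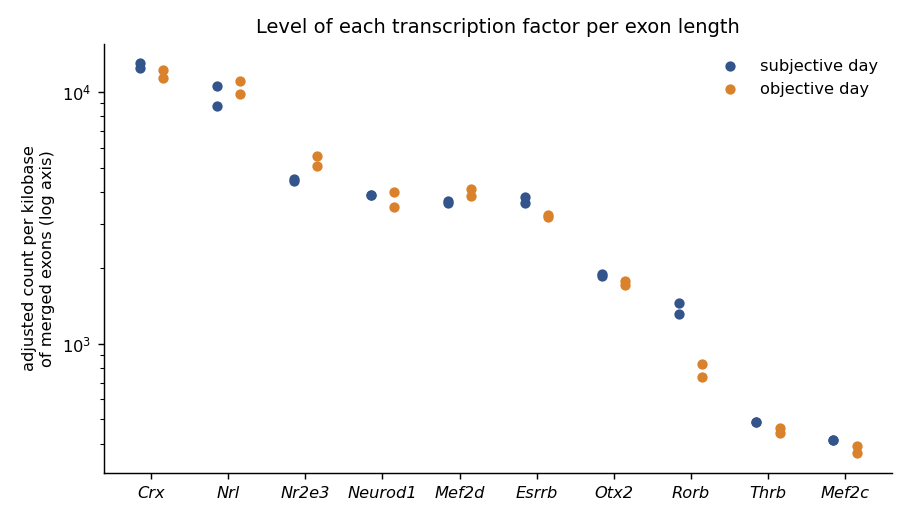
Adjusted count per kilobase of merged exons (log vertical axis) of the 10 transcription factors in order of their mean, with a point for each of the 2 subjective day (blue) and 2 objective day (orange) samples. Crx and Nrl have the highest means, 12276 and 10045, and for Rorb the 2 conditions are well apart at 1311 and 1454 against 739 and 832.

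Transcript GC content moved with the fold change across the genes. Over the 17536 tested genes with a known GC content the Spearman correlation of log2 fold change with GC content was 0.58, a description across genes that share their libraries. All 6 members below the median GC content of 49.8% had a negative log2 fold change, and of the 4 above it Esrrb alone did. With the GC trend removed from each sample, the median of the 10 members was 0.035, against 0.019 over all genes, and Rorb remained the 1 member called. The split of all calls moved with it, from 87.5% lower among 1514 called genes to 52.0% lower among 223. The part of GC content in each change was not tested.

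**Figure D4:**
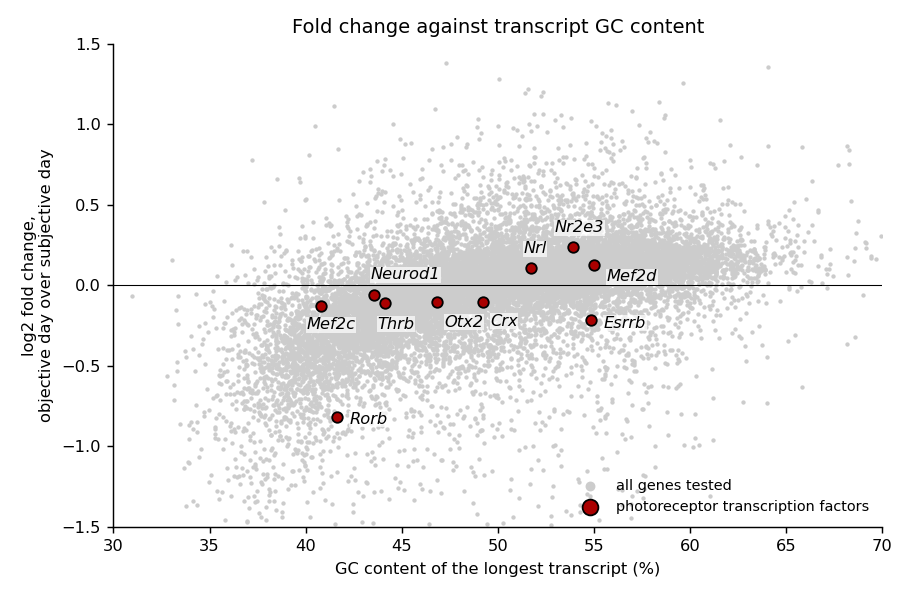
Log2 fold change of objective day over subjective day against GC content of the longest transcript, for all tested genes (grey) and the 10 transcription factors (red, named). The vertical axis is limited to 1.5 in either direction, which leaves out 116 genes, and the horizontal axis leaves out 16. Rorb lies at -0.82 and 41.6% GC and Mef2c at -0.13 and 40.8% GC.

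Relatives, dimer partners and cofactors of the members were examined as a list of 38 genes, of which 37 were tested (Mef2b was not). Of these, 3 were lower, 1 was higher and 33 did not pass, a count near the 8.51% of all genes called, and the median log2 fold change was 0.049. Rora (log2 fold change -0.41, adjusted p = 0.00974), the closest relative of Rorb, was lower, with values of 12376 and 12679 in subjective day, against 9461 and 9415.7 in objective day. Neurod4 (-0.39, adjusted p = 0.0101), a bipolar and amacrine relative of Neurod1, was also lower. Casz1 (-0.32, adjusted p = 0.0385), a zinc-finger protein that keeps rod chromatin organised, was lower as well. Nr1d1 (0.28, adjusted p = 0.0462), the clock repressor that binds the same DNA elements as the ROR proteins, was higher, with 10749 and 10513 in subjective day, against 13399 and 12465 in objective day. The call of Nr1d1 was lost in 6 of 13 alternatives, among them without the filter on low values (adjusted p = 0.053 from limma's test). In the fit without a replicate block none of the 37 passed with the GC trend removed, where the log2 fold change was -0.055 for Rora, 0.18 for Neurod4, -0.43 for Casz1 and 0.17 for Nr1d1. Prdm1, a known target of Rorb and Otx2, was singled out after its value was seen. With a log2 fold change of -0.30 and an adjusted p of 0.0764 (limma), it did not pass.

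Genes that the members are known to control were examined next. Of 24 rod genes, 2 were called lower, none was called higher and 22 did not pass, a count near the 8.51% of all genes called. Rdh12, which the paper's edgeR comparison of these samples called higher in objective day, did not pass here. Its log2 fold change was 0.38 (adjusted p = 0.0529 from limma's test). Over the 24 rod genes the median log2 fold change was 0.10, with 16 genes positive and 8 negative. The groups did not overlap for 11 genes with objective day higher and for 4 with it lower. Over all genes tested, 27.9% lay apart with objective day above and 28.2% with it below, so this separation is read as a description. Rp1, a microtubule protein of the outer segment axoneme, fell by 0.71 on the log2 scale (adjusted p = 0.00694), from 65369 and 68756 to 42567 and 39651. Gucy2f, a guanylate cyclase that restores cGMP after light, fell by 0.39 (adjusted p = 0.0151). In the fit without a replicate block neither passed with the GC trend removed, and the values were -0.26 for Rp1 and -0.11 for Gucy2f. Of 14 cone genes 0 passed limma's test, and the median log2 fold change was 0.060. An unadjusted p under 0.05 was found for 3 of them, against 4512 of all 17784 genes tested. The cone genes with the highest values were Cacna2d4 (0.10, adjusted p = 0.399) and Gnb5 (0.045, adjusted p = 0.71), both also made outside cones.

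Regulators of the other retinal cells served as a comparison in the same tissue. Of 32 such transcription factors 31 were tested (Ptf1a was not). Of these, 2 were lower, 1 was higher and 28 did not pass, a count near the 8.51% of all genes called. The median log2 fold change was 0.023. Six6 (-0.42, adjusted p = 0.0173), an eye field homeobox gene, and Isl1 (-0.26, adjusted p = 0.038), made in ON bipolar, cholinergic amacrine and ganglion cells, were lower. Bhlhe23 (0.35, adjusted p = 0.0303), needed for rod bipolar cells, was higher. In the fit without a replicate block none of the 31 passed with the GC trend removed, where 1.27% of all genes did. The log2 fold change there was -0.23 for Six6, -0.15 for Isl1 and 0.24 for Bhlhe23. The shares called in these lists were not tested against that of the photoreceptor transcription factors.

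**Figure D5:**
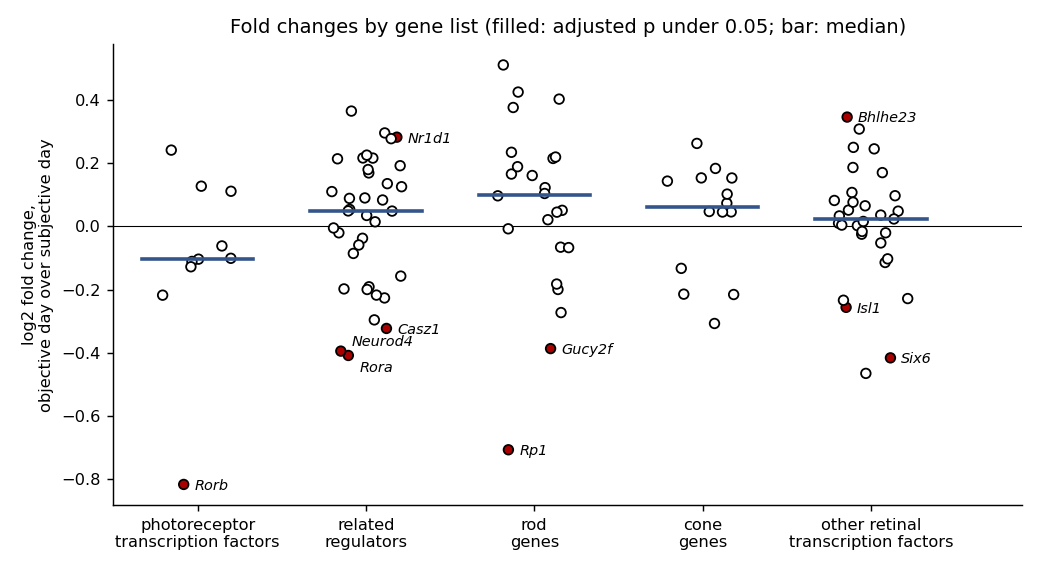
Log2 fold change of objective day over subjective day for every tested gene of 5 lists, with filled points for an adjusted p under 0.05 and a bar at the median of each list. The medians lie between -0.10 for the photoreceptor transcription factors and 0.10 for the rod genes, and Rorb, at -0.82, is the lowest point plotted.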

How the data were processed

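RNA-seq had been performed on polyadenylated RNA from 4 eye samples. Per the labels and Methods, the authors processed single-end reads with CASAVA 1.8, aligned them with TopHat2 2.0.9 and Bowtie2 2.1.0, counted them per gene with HTSeq and analysed them with edgeR. The deposited signal values are gene counts that the authors adjusted to a common library size, and they are not whole numbers. The deposited log2 fold changes, log2 CPM, p-values and FDR values of the authors' own comparison were not used. Because a count test does not suit such values, the 2 groups were compared with limma 3.58.1 in R 4.3.3 (lmFit, and eBayes with its prior variance fitted as a trend in mean expression). Values were transformed as log2(value + 1), and genes that did not reach 10 in 2 or more samples were dropped, with Benjamini-Hochberg adjustment over all genes and a threshold of 0.05. The code was tested on simulated data.

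Coordinates, exon lengths and GC content came from GENCODE M21 on GRCm38 and promoter windows from RefSeq. The GC trend was a loess curve per sample with a span of 0.3. Replicate samples came from different mice, so the spread within a group is between pools of 2 mice. With 2 samples per group, limma's p-values also rest on variance pooled over genes and do not measure that spread alone. All 10 members were named, and from each comparison list the 4 genes with the smallest adjusted p among those that passed, or, where fewer than 2 passed, also the 2 with the highest mean. The members and lists were chosen with earlier results of these data known. The alternatives, 13 in all, were other scalings, filters, pseudocounts, variance priors, a GC correction, a replicate block and leaving out each sample.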

Additional observations from a re-analysis of the deposited data

How the results depend on the processing

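Rorb kept its direction in all 13 alternatives and its call in 12. With a variance prior not following the mean its log2 fold change was -0.82 with an adjusted p of 0.126 (limma), and over the alternatives its adjusted p ran from 4.08e-05 to 0.126. Without 1 sample at a time it lay between -0.90 and -0.73, and 1 member was called each time. Each such fit leaves a group with a single sample, which is assumed to vary like the other group, so these calls are not independent support. That prior gave 0 calls among all genes, members, related regulators, rod genes and other retinal transcription factors, with 3586 genes at an unadjusted p under 0.05 (4512 in the reported fit). With the GC trend removed 223 genes were called, and 0 related regulators, rod genes and other retinal transcription factors. With it the log2 fold change turned to 0.053 for Thrb, 0.13 for Neurod1, 0.23 for Mef2c and 0.18 for Neurod4, with or without the replicate block. With upper-quartile scaling 1685 of 17784 genes tested were called (73.7% lower, 443 higher against 189 in the reported fit). Among them were 2 of 10 members, 7 of 37 related regulators, 5 of 24 rod genes and 1 of 14 cone genes. With median-of-ratios scaling 1547 of 17784 genes tested were called, among them 4 of 24 rod genes.

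The number of called genes ran from 664 (without OD replicate 2) to 2557 (without SD replicate 1), with 736 without OD replicate 1. Over these omissions the calls ran from 0 to 7 for related regulators, 1 to 6 for rod genes, 0 to 4 for cone genes and 0 to 7 for other retinal transcription factors, each highest without SD replicate 1. With 1 sample omitted, the log2 fold change of Nrl ran from -0.021 (without SD replicate 2) to 0.24 and that of Neurod1 from -0.16 to 0.037 (without OD replicate 2). That of Crx ran from -0.16 (without OD replicate 1) to -0.051 (without OD replicate 2), and that of Mef2c was -0.080 without OD replicate 2. Of the named list genes, Rora, Neurod4, Casz1, Nr1d1, Gucy2f, Six6, Bhlhe23 and Isl1 lost their call without OD replicate 2, all of these but Neurod4 and Six6 without OD replicate 1, and Casz1, Nr1d1, Bhlhe23 and Isl1 without SD replicate 2, while Rp1 kept its call in each omission. The cause of these shifts was not tested.

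The labels do not say that equal replicate numbers mark shared processing, and deviations of same-numbered samples correlated at 0.32 across genes. With the replicate block 3613 of 17784 genes tested were called (64.5% lower), against 1514 in the reported fit. Among them were 3 of 10 members, 14 of 37 related regulators and 12 of 24 rod genes. Also called were 2 of 14 cone genes and 5 of 31 other retinal transcription factors. The members were Rorb (adjusted p = 0.000463 from limma), Esrrb (0.0156), both lower, and Nr2e3 (0.0125), higher. With the block and the GC trend removed 1583 of 17536 genes tested were called (44.7% lower). Among them were 3 of 10 members, 4 of 37 related regulators and 9 of 24 rod genes. Also called were 1 of 14 cone genes and 3 of 31 other retinal transcription factors. The members were then Rorb and Esrrb (-0.32, adjusted p = 0.00104), both lower, and Mef2c, which passed as higher (0.23, adjusted p = 0.00572), against its reported -0.13, while Nr2e3 did not pass (0.078). Neurod4, called as lower in the reported fit, passed there as higher (0.18, adjusted p = 0.0305). Rp1 passed there as lower (-0.26, adjusted p = 0.00773 from limma).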
